A study of Homo sapiens with 6 samples.

Results

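The 10 genes described here encode enzymes that make serine and asparagine and that carry one-carbon units on folate, and they were taken by symbol from the 20683 genes listed in the count files, where all 10 were present. RNA was measured in HT-1080, an established human fibrosarcoma cell line, in 2 groups of 3 libraries that the series describes as biological replicates. The inhibitor group received SLV-8472-01, a compound known here by its code name that the series calls an inhibitor of the kinase IRAK4, for 24 h. Its concentration is labelled 5 mM, and nothing in the sources allowed that unit to be verified. The control group received 0.1% DMSO for 24 h, and the labels of the inhibitor libraries name no solvent. All dishes held the same line in MEM with serum and non-essential amino acids, a supplement that supplies serine, glycine and asparagine. Libraries came from a commercial amplicon panel read on an Ion Torrent Proton, so that each gene is counted through a short PCR product and levels cannot be compared between genes. The comparison asks which of these transcripts differ after exposure to the inhibitor.

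Serine is made from the glycolytic intermediate 3-phosphoglycerate in a chain of reactions catalysed by PHGDH, PSAT1 and PSPH. Serine hydroxymethyltransferases then pass a carbon of serine to tetrahydrofolate, and folate-bound carbon is oxidised or reduced in parallel sets of reactions in the cytosol (SHMT1, MTHFD1) and in mitochondria (SHMT2, MTHFD2, MTHFD1L, ALDH1L2), which feed the synthesis of purines, thymidylate and mitochondrial formyl-methionine. ASNS makes asparagine from aspartate and glutamine. Several of these genes, ASNS, PHGDH, PSAT1, SHMT2 and MTHFD2 among them, are known targets of the stress-response transcription factor ATF4, and serine and one-carbon genes are also known to respond to MYC.

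Library totals ranged from 9162281 to 13184553 counts, and 11216 genes passed the filter on low counts, all 10 members among them. The 7 mesenchymal marker genes checked were all detected, with a summed level of 8074 to 8425 CPM (counts scaled to a common library size, with TMM factors) in the inhibitor libraries and 7342 to 9000.5 CPM in the DMSO libraries. The epithelial genes CDH1 and KRT5 and the leukocyte genes PTPRC and CD3E had no count in any library. The 5 epithelial, 5 leukocyte and 4 endothelial markers summed to at most 1.87, 1.23 and 3.1 CPM. One library stood apart: the median absolute log2 difference was 0.317 between DMSO 3 and DMSO 1 and 0.248 between DMSO 3 and DMSO 2, against 0.155 between DMSO 1 and DMSO 2 and 0.122 to 0.13 among the inhibitor libraries. Transcript GC content and the departure from the DMSO mean were related over 9189 genes, as a description across genes that are not replicates, with Spearman's rho of -0.472 in DMSO 3 and 0.513 in DMSO 1; departures within a group sum to 0. The part of GC content in the results below was not tested beyond the fit with each library's GC trend removed.

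Of the 10 enzymes, 1 passed as changed in the main comparison, and those that did not pass are not shown to be unchanged. MTHFD2, the mitochondrial methylenetetrahydrofolate dehydrogenase, fell by 43.8% in the inhibitor libraries. By edgeR's quasi-likelihood test with Benjamini-Hochberg adjustment over all genes, at a threshold of 0.05, 1 member was lower and 0 were higher, where 1.92% of all tested genes were lower and 1.95% were higher. At an unadjusted p under 0.05, 7 of the 10 passed, where 19.5% of all tested genes did. Fold changes of 8 members were below 0, against 50.6% of all tested genes, and the median of the 10 was -0.34 on the log2 scale, against -0.00438 over all tested genes. Members whose 3 inhibitor values all lay below the 3 DMSO values numbered 5, namely MTHFD2, PHGDH, PSAT1, ASNS and ALDH1L2, where 11.8% of all tested genes did so. In bulk RNA, less of a transcript in every cell and fewer cells with a high level cannot be told apart.

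**Figure D1:**
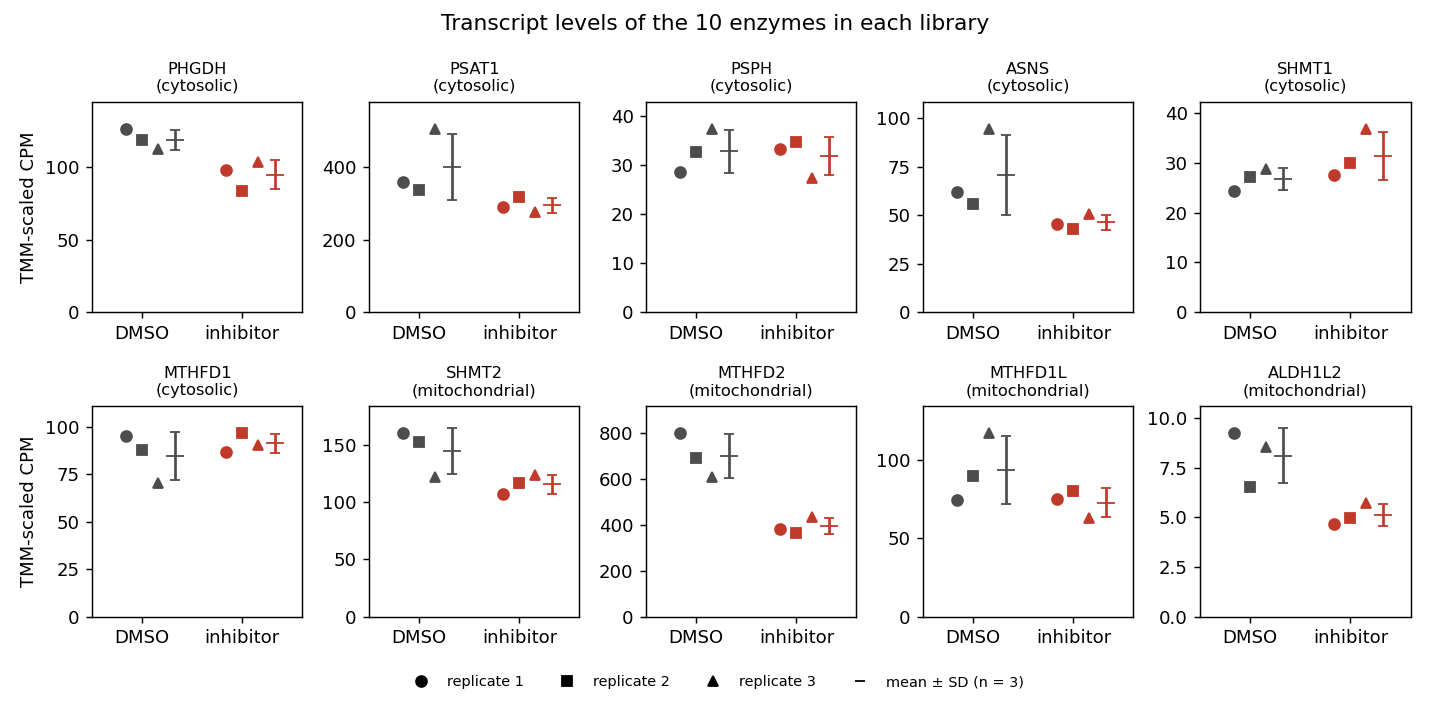
TMM-scaled CPM (y axis, from 0) of each enzyme in the 3 DMSO and 3 inhibitor libraries, with the mean ± SD (n = 3) beside the points. The MTHFD2 values of 365 to 432 CPM in the inhibitor libraries all lie below the DMSO values of 609 to 796 CPM, and the ASNS and PSAT1 values of DMSO 3 lie above those of the other DMSO libraries.

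Promoter sequences are shown for 3 members: MTHFD2, the member called lower in the main comparison, and ASNS and MTHFD1L. The ASNS and MTHFD1L windows shown hold a match to TGATGNAA, the core of the composite element known to bind ATF4 and C/EBP proteins. The windows are from RefSeq on GRCh38.p14, run 5′ to 3′ on the gene's strand, and hold 250 bases before and 50 after a transcript start. Capitals mark TGATGNAA and CACGTG, the E-box that MYC is known to bind; both strands were searched, N is any base, and the motifs do not overlap here.
MTHFD2 at chr2:74198365-74198664, plus strand: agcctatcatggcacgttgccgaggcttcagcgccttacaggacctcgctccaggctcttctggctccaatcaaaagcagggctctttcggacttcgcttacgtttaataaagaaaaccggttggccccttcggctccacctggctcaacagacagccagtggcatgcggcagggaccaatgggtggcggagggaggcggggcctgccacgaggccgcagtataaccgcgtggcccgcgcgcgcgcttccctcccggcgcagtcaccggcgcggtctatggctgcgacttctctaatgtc
ASNS at chr7:97872359-97872658, minus strand: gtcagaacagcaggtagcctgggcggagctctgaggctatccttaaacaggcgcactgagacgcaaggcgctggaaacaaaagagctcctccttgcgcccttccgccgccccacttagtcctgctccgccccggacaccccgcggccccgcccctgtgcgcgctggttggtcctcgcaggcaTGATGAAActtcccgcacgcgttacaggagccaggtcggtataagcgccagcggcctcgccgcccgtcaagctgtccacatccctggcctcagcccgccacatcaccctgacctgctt
MTHFD1L at chr6:150866236-150866535, plus strand: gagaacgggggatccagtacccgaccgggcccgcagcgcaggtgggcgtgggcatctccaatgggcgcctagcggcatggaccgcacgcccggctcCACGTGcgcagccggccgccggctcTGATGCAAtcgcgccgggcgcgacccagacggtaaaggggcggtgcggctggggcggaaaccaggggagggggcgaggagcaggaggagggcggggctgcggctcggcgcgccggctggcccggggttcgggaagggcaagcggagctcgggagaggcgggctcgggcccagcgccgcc
The ASNS match begins 68 bases upstream of the start of the window shown, and the window of its other start holds no match. The MTHFD1L match begins 129 bases upstream in the window shown. Its position depends on the start: the same site lies 90 bases upstream of another RefSeq start and 25 bases downstream of a further one, and the window of the remaining start does not hold it. Windows were found for 7 of the 10 members, PHGDH, PSAT1, ASNS, SHMT1, MTHFD1, MTHFD2 and MTHFD1L. These genes have 11 windows, and TGATGNAA was present in 4 of them, of which 3 are overlapping MTHFD1L windows with the same site, and in 3.62% of 35116 windows of this length. CACGTG was present in 4 of the 11, again 3 overlapping windows of MTHFD1L and 1 of MTHFD1, and in 7.26% of all windows. A match is a description of the sequence, and neither MTHFD2 nor PHGDH, PSAT1 and SHMT1 held either string in these windows.

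In the serine branch, levels were lower for PHGDH and PSAT1 without passing the test, and the PSPH groups overlapped. PHGDH, which catalyses the first step, was at 97.5, 83.4 and 103 CPM in inhibitor 1 to 3 and at 126, 118 and 112 CPM in DMSO 1 to 3. The groups did not overlap, although inhibitor 3 and DMSO 3 were close. Its log2 fold change was -0.33 (SE 0.125, edgeR adjusted p = 0.164). PSAT1, the phosphoserine aminotransferase, was at 289, 318 and 276 CPM in the inhibitor libraries and at 359, 338 and 504 CPM in the DMSO libraries. The highest value was that of DMSO 3, and inhibitor 2 was close to DMSO 2. The PSAT1 log2 fold change was -0.44 (SE 0.148, edgeR adjusted p = 0.114).

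PSPH, the phosphatase that releases serine, was at 33.2, 34.7 and 27.4 CPM with the inhibitor and at 28.5, 32.6 and 37.3 CPM with DMSO. Its groups overlapped over nearly their whole range, and PSPH differed by -0.04 on the log2 scale (SE 0.147; adjusted p = 0.917 by edgeR), and the sign turned positive at 0.05 without DMSO 3, at 0.05 without inhibitor 3 and at 0.02 with library totals as the scaling. PSAT1 depended on DMSO 3 for its size: without that library its log2 fold change was -0.26 (edgeR adjusted p = 0.0555). PHGDH, in contrast, passed without DMSO 3, at -0.38 (edgeR adjusted p = 0.00891), but in only 2 of the 16 alternatives.

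ASNS, the asparagine synthetase, was at 45.3, 43.1 and 50.5 CPM in the inhibitor libraries and at 61.7, 55.8 and 94.2 CPM in the DMSO libraries. All inhibitor values lay below all DMSO values, and DMSO 3 was 1.6-fold above the mean of the other DMSO libraries on the log scale. The log2 fold change of ASNS was -0.60 (SE 0.177) and did not pass by edgeR (adjusted p = 0.0741), while it passed by DESeq2 (adjusted p = 0.0256). Without DMSO 3 the fold change was smaller, -0.36, and passed (edgeR adjusted p = 0.0203). It also passed without DMSO 1, at -0.70 (edgeR adjusted p = 0.0338), and with the GC trend removed, at -0.62 (edgeR adjusted p = 0.036). ASNS passed in 7 of the 16 alternatives. It did not pass by limma-voom (adjusted p = 0.0894). Nor did it pass in any edgeR fit that left out an inhibitor library (adjusted p = 0.164 to 0.312).

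The cytosolic one-carbon members, SHMT1 and MTHFD1, did not have lower means with the inhibitor. SHMT1, the cytosolic serine hydroxymethyltransferase, was at 27.5, 29.95 and 36.7 CPM with the inhibitor and at 24.3, 27.1 and 28.8 CPM with DMSO. The groups overlapped, and inhibitor 3 was the highest of the 6. The log2 fold change was 0.23 (SE 0.146, edgeR adjusted p = 0.41). MTHFD1, the trifunctional enzyme that interconverts folate-bound carbon in the cytosol, was at 86.6, 96.4 and 90.5 CPM with the inhibitor and at 95.1, 87.6 and 70.5 CPM with DMSO. DMSO 3 was the lowest and the other 5 overlapped. For MTHFD1 the difference on the log2 scale was 0.11 (SE 0.134) and did not pass (edgeR adjusted p = 0.714); it was -0.02 without DMSO 3.

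All 4 mitochondrial enzymes had lower means with the inhibitor, and MTHFD2 alone passed. MTHFD2 was at 379, 365 and 432 CPM in inhibitor 1 to 3 and at 796, 690 and 609 CPM in DMSO 1 to 3. Every inhibitor value was well below every DMSO value, with means of 392 ± 35.1 and 698 ± 93.9 CPM (SD, n = 3). The log2 fold change was -0.83 (SE 0.127, edgeR adjusted p = 0.00227). It passed in all 16 alternative settings, including each of the 6 fits that left out 1 library, with log2 fold changes from -0.94 to -0.74 and adjusted p-values from 1.54e-08 to 0.0446.

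ALDH1L2, which oxidises formyl-tetrahydrofolate to carbon dioxide in mitochondria, had few reads, 168 in the inhibitor group and 280 in the DMSO group. It was at 4.66, 4.99 and 5.72 CPM with the inhibitor and at 9.23, 6.55 and 8.56 CPM with DMSO. The groups did not overlap, and DMSO 2 was the nearest to the inhibitor values. Its log2 fold change of -0.66 (SE 0.196) did not pass by edgeR (adjusted p = 0.0773), and did without DMSO 3, at -0.64 (adjusted p = 0.0213), and with the GC trend removed, at -0.71 (adjusted p = 0.0465). ALDH1L2 passed in 5 of the 16 alternatives. It did not pass by DESeq2 (adjusted p = 0.0863) or limma-voom (adjusted p = 0.0922). Nor did it pass in any edgeR fit that left out an inhibitor library (adjusted p = 0.153 to 0.286).

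SHMT2, the mitochondrial serine hydroxymethyltransferase, was at 107, 117 and 123 CPM with the inhibitor and at 160, 152 and 122 CPM with DMSO. DMSO 1 and 2 were above all inhibitor libraries, while DMSO 3 lay within their range. Its log2 fold change was -0.32 (SE 0.133, edgeR adjusted p = 0.194), or -0.45 without DMSO 3 (edgeR adjusted p = 0.0017). SHMT2 passed in 2 of the 16 alternatives. MTHFD1L, the mitochondrial formyl-tetrahydrofolate synthetase that releases formate, was at 75.5, 80.5 and 63 CPM with the inhibitor and at 74.5, 89.7 and 117 CPM with DMSO. Its groups overlapped and DMSO 3 was the highest. For MTHFD1L the difference on the log2 scale was -0.36 (SE 0.163) and did not pass (edgeR adjusted p = 0.245); it was -0.18 without DMSO 3 (edgeR adjusted p = 0.26).

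**Figure D2:**
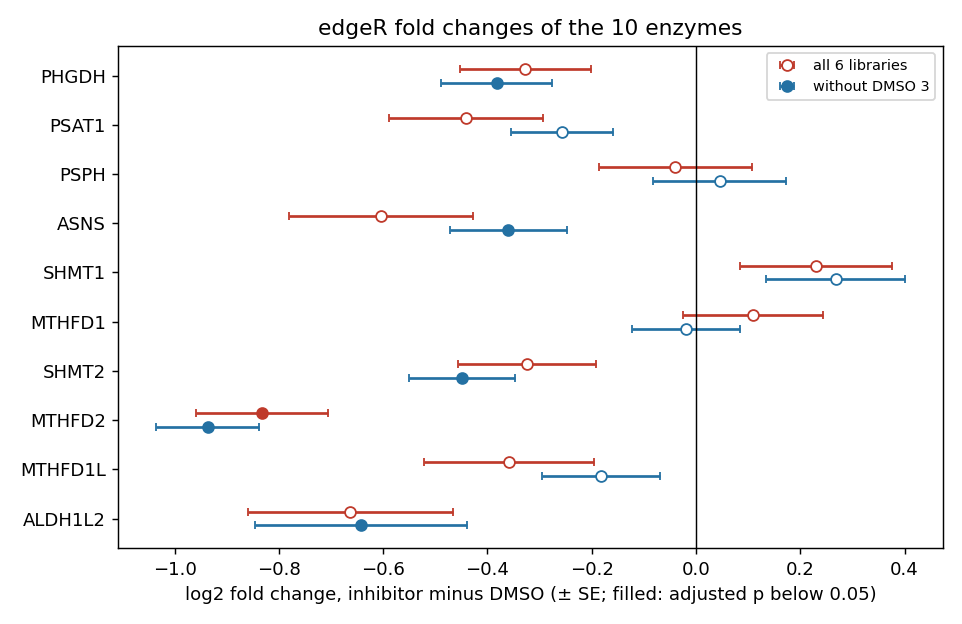
Log2 fold changes of the 10 enzymes, inhibitor minus DMSO (x axis, ± SE), by edgeR with all 6 libraries (red) and without DMSO 3 (blue), with filled points for an adjusted p below 0.05. MTHFD2 at -0.83 is the single filled point with all libraries, and 5 points are filled without DMSO 3.

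DMSO 3 moved the members in both directions. On the log2 scale it lay above the mean of DMSO 1 and 2 by 0.68 for ASNS, 0.53 for PSAT1 and 0.52 for MTHFD1L. It lay above that mean by less for PSPH (0.29), SHMT1 (0.17) and ALDH1L2 (0.14). It lay below that mean for MTHFD1 (-0.37), SHMT2 (-0.36), MTHFD2 (-0.28) and PHGDH (-0.12). The median absolute value of this difference over all tested genes was 0.286. Transcript GC content was 41.4% for MTHFD2, 42.1% for ALDH1L2, 42.3% for PSAT1, 47.0% for ASNS and 47.6% for MTHFD1. It was 49.8% for PSPH, 51.5% for SHMT1, 51.9% for MTHFD1L, 55.2% for SHMT2 and 58.3% for PHGDH. Its part in these differences between DMSO libraries was not tested. Without DMSO 3, 5 members passed as lower, MTHFD2, SHMT2, PHGDH, ASNS and ALDH1L2, where 11.1% of all tested genes were lower, so both the members and the genes at large passed more often. With the GC trend removed, 4 were lower, MTHFD2, ASNS, PSAT1 and ALDH1L2, where 3.04% of all tested genes were lower. The members called lower numbered 4 with no filter on low counts (2.79% of all tested genes), 2 by DESeq2 (2.72%), 5 by limma-voom with library quality weights (10.9%), 1 with the replicate block (1.5%), 4 with the block and the GC trend removed (3.33%) and 2 without DMSO 1 (2.03%).

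**Figure D3:**
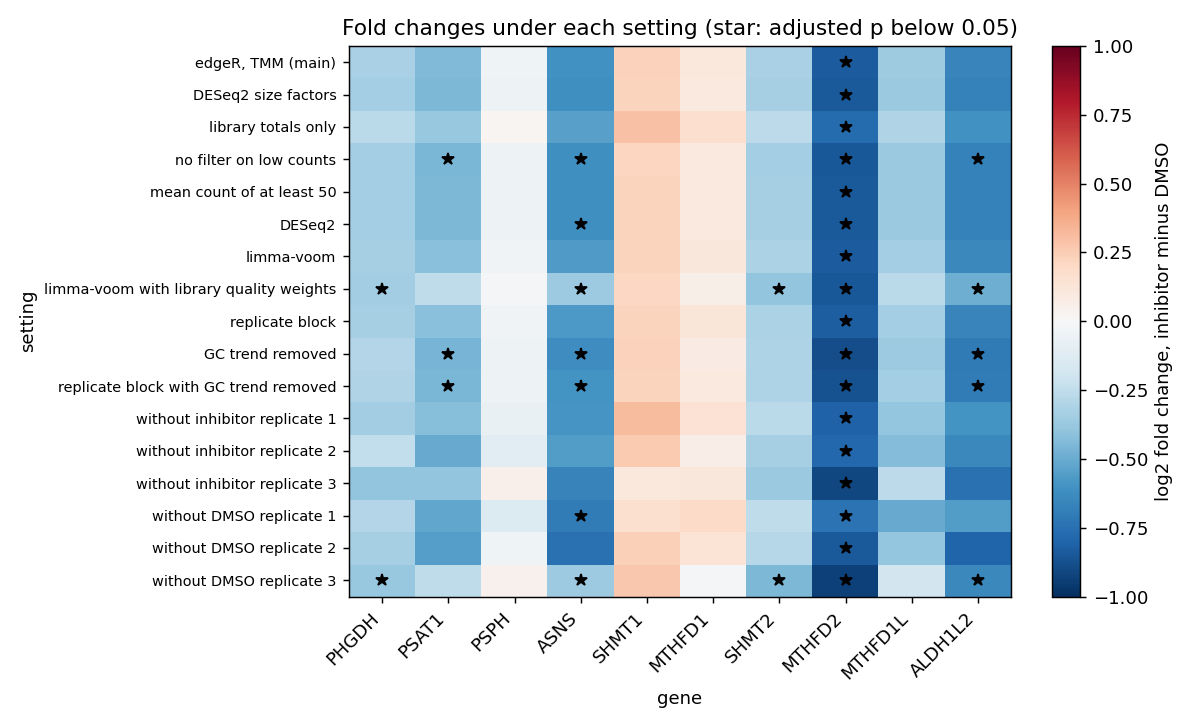
Log2 fold change of each enzyme (columns, colour scale) under the main fit and 16 alternative settings (rows), with a star for an adjusted p below 0.05. The MTHFD2 column is starred in every row, the ASNS column in 7 alternatives, and the SHMT1, MTHFD1, PSPH and MTHFD1L columns in none.

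Mitochondrial and cytosolic isoenzymes were set against each other as the log2 ratio of their counts within a library, which does not depend on library scaling. For SHMT2 over SHMT1 the log2 ratio was 1.95, 1.96 and 1.74 in inhibitor 1 to 3 and 2.71, 2.48 and 2.07 in DMSO 1 to 3. The ratio was lower in every inhibitor library, by a mean of -0.54. For MTHFD2 over MTHFD1 it was 2.13, 1.92 and 2.25 with the inhibitor and 3.06, 2.98 and 3.11 with DMSO, a difference of -0.95. This was the largest of the 6 differences, and its DMSO values lay close together, with DMSO 3 the lowest DMSO library for both genes.

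For ALDH1L2 over MTHFD1 the mean log2 ratio was -4.11 ± 0.153 with the inhibitor and -3.35 ± 0.351 with DMSO (SD, n = 3), a difference of -0.75 with no overlap. MTHFD2 was also set against MTHFD2L, its mitochondrial paralog, and this log2 ratio was 7.63 ± 0.441 and 8.41 ± 0.158 (SD, n = 3), a difference of -0.78 with no overlap. The groups overlapped for MTHFD1L over MTHFD1, at -0.20, -0.26 and -0.52 with the inhibitor and -0.35, 0.03 and 0.73 with DMSO. They also overlapped for ALDH1L2 over its cytosolic counterpart ALDH1L1, at 0.42, 0.47 and 0.75 against 0.91, 0.10 and 1.0.

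In the 2-sided exact permutation test each of the 4 pairs without overlap had p = 0.1, the smallest that 3 against 3 libraries allow, and 0.15 with Benjamini-Hochberg adjustment over the 6 pairs. MTHFD1L over MTHFD1 had an exact p = 0.3 and ALDH1L2 over ALDH1L1 an exact p = 0.8, or 0.36 and 0.8 adjusted. No pair could pass a threshold of 0.05 in this design, and pairs that share MTHFD1, MTHFD2 or ALDH1L2 are not independent of each other.

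**Figure D4:**
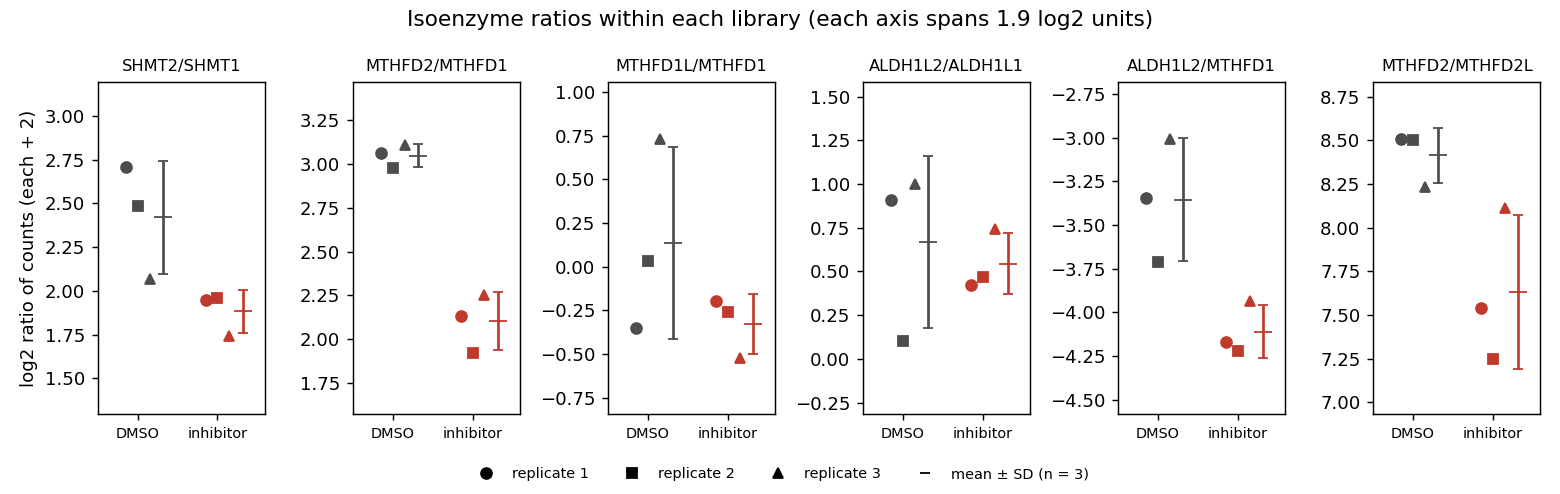
Log2 ratio of the counts of an isoenzyme pair (2 added to each count, y axis, equal span in every panel) in each library, with the mean ± SD (n = 3) beside the points. The MTHFD2/MTHFD1 values of 1.92 to 2.25 in the inhibitor libraries lie below the 2.98 to 3.11 of the DMSO libraries, while ALDH1L2/ALDH1L1 values overlap.

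Neighbouring genes of the same pathways were read by list, and differences between the lists were not tested. Of 66 listed genes, 64 were present and 50 were tested, with a median log2 fold change of 0.00355. By edgeR, where 1.92% of all tested genes were lower and 1.95% were higher, 5 neighbours were lower and 1 was higher. The folate branch held none of these: of 16 tested genes of the other folate cycle none passed by edgeR, and 2 had an unadjusted p under 0.05, a smaller share than the 19.5% of all tested genes. DESeq2 and limma-voom without library quality weights also called 0 of them. Without DMSO 3 the edgeR test called ATIC and MTFMT, named after their values were seen, higher and ALDH1L1 lower. Limma-voom with library quality weights made the same calls. Of all tested genes 11.1% were lower and 1227 genes were higher without DMSO 3, and 10.9% were lower and 1387 genes were higher with the weights. TYMS, the thymidylate synthase, had a log2 fold change of 0.14 (SE 0.113). MTHFD2L, at 13 to 26 counts per library, was at -0.02 (SE 0.289), and ALDH1L1 was at -0.56 (SE 0.216, edgeR adjusted p = 0.165). ALDH1L1, the cytosolic counterpart of ALDH1L2, was at 3.43, 3.57 and 3.33 CPM with the inhibitor. With DMSO it was at 4.85, 6.09 and 4.17 CPM, so its groups did not overlap. GLDC, the decarboxylase of the glycine cleavage system, was at 0.20 (SE 0.266).

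The lower neighbours were genes of amino acid uptake and use. CTH, cystathionine gamma-lyase, which makes cysteine from serine-derived cystathionine, was at 2.04, 1.16 and 1.14 CPM with the inhibitor and 5.08, 7.69 and 6.3 CPM with DMSO. Its log2 fold change was -2.10 (SE 0.278, edgeR adjusted p = 0.000745), on 49 and 222 counts summed over the groups. The CTH partner CBS had 1 to 5 counts per library and was not tested. The serine and neutral amino acid transporter SLC1A4 fell from 65.3 ± 11.9 to 37.3 ± 1.72 CPM (SD, n = 3) and SLC38A2, a sodium-coupled neutral amino acid transporter, from 612 ± 98.6 to 381 ± 27.1 CPM. SLC1A5, a glutamine and neutral amino acid transporter named after its values were seen, fell from 350 ± 47.7 to 233 ± 17.2 CPM. Their log2 fold changes were -0.80, -0.68 and -0.59 (edgeR adjusted p = 0.00714, 0.00938 and 0.0202). These made 4 lower genes of 13 tested in the serine and glycine uptake and use list, where 1.92% of all tested genes were lower. Like the other lists, this one was chosen with earlier results of these data known.

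GPT2, the mitochondrial alanine aminotransferase, was the single lower gene of 11 tested in the aspartate, asparagine and glutamine list, at 7.53 ± 1.2 against 14.7 ± 1.55 CPM (SD, n = 3; edgeR adjusted p = 0.00676). MAT2A, which makes S-adenosylmethionine from methionine, was the single higher gene, at 231, 240 and 249 CPM with the inhibitor and 132, 143 and 160 CPM with DMSO. The MAT2A log2 fold change was 0.73 (SE 0.119, edgeR adjusted p = 0.00382), and it was 1 of 4 tested genes of the methionine cycle. Among the 4 proline synthesis genes the edgeR, DESeq2 and limma-voom tests each called 0, and 1 had an unadjusted edgeR p under 0.05. CTH passed in the 15 alternatives that tested it and MAT2A in all 16. SLC1A4, SLC1A5, SLC38A2 and GPT2 did not pass without inhibitor 2 (edgeR adjusted p = 0.0838, 0.15, 0.066 and 0.0679). Calls were also lost for SLC1A4, SLC1A5 and SLC38A2 without inhibitor 1 and for SLC1A5, SLC38A2 and GPT2 without inhibitor 3. SLC1A5 also lost its call without DMSO 2. The count of lower neighbours was 1 without inhibitor 2 and 2 without inhibitor 1 or inhibitor 3. Calls were also fewer over all tested genes in these fits. There, 61 of 11376 were lower without inhibitor 2, 76 of 11340 without inhibitor 1 and 81 of 11365 without inhibitor 3. In the main fit 215 of 11216 were lower. Without DMSO 3 it was 12 of 51 tested, where 11.1% of all tested genes were lower.

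**Figure D5:**
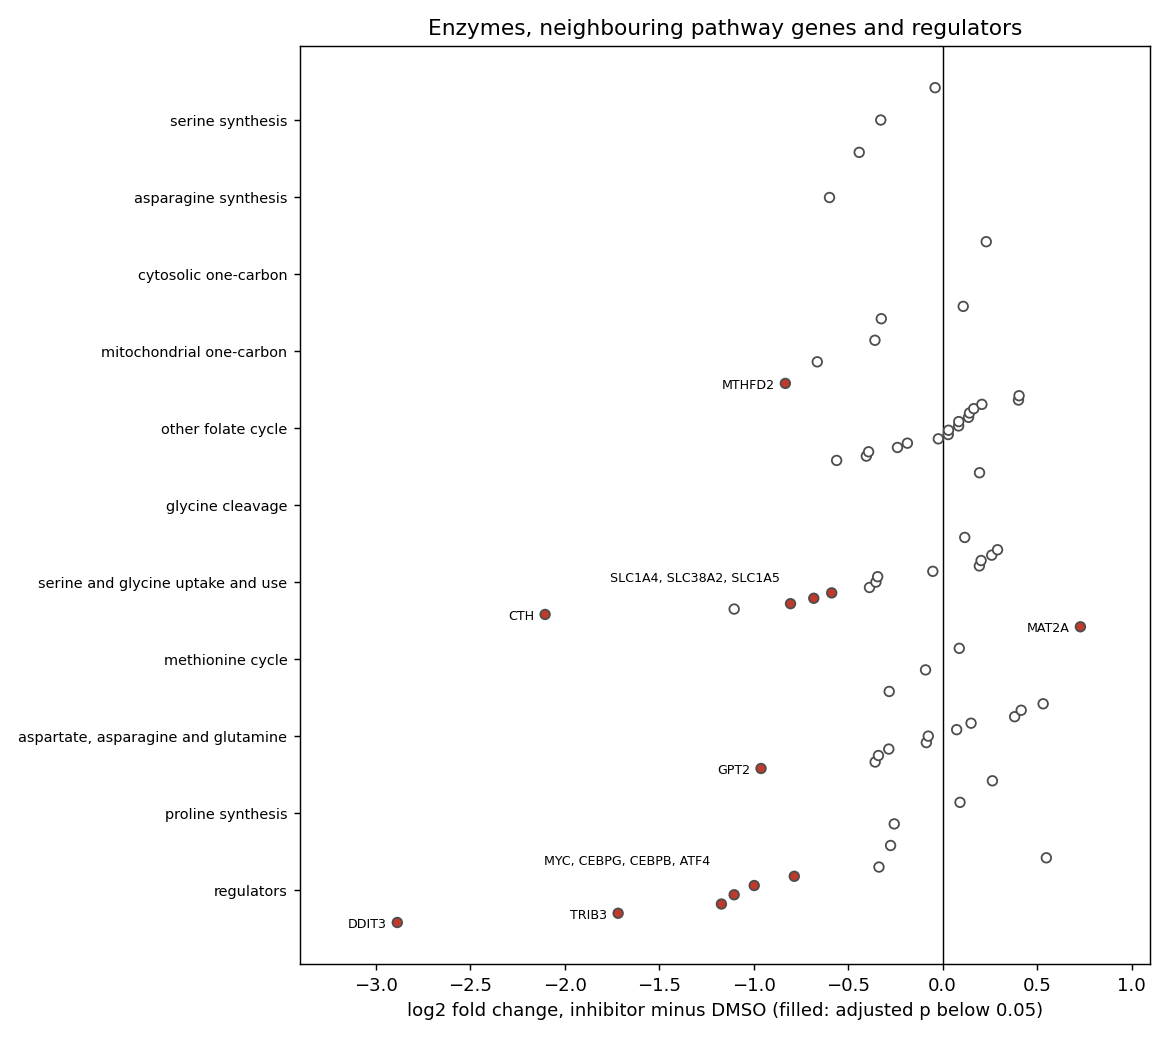
Log2 fold change, inhibitor minus DMSO (x axis), of every tested gene of the enzyme groups, the neighbouring pathways and the listed regulators (rows; height within a row only spreads the points), with filled points for an edgeR adjusted p below 0.05. The filled points are MTHFD2, 5 lower neighbours from SLC1A5 to CTH, MAT2A as the single higher gene, and 6 lower regulators.

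Transcripts of 6 of the 8 listed regulators were lower in the same libraries, on measurements that do not show their activity. Whether they acted on the enzymes here was not tested. ATF4 was at 582, 433 and 461 CPM with the inhibitor and 859, 815 and 870 CPM with DMSO, with no overlap. Its log2 fold change was -0.78 (SE 0.126, edgeR adjusted p = 0.00347; 0.0513 without inhibitor 2). MYC was at 44.9, 45.7 and 42.2 CPM against 110, 104 and 84.5 CPM, a difference of -1.17 on the log2 scale (SE 0.133). CEBPG, a partner of ATF4, was at -1.10 (SE 0.193) and CEBPB at -1.0 (SE 0.193); CEBPG did not pass without inhibitor 2, nor CEBPB without any 1 of the inhibitor libraries. TRIB3, a pseudokinase induced by ATF4, fell by 1.72 on the log2 scale. DDIT3, the CHOP gene, had 1 to 5 counts in each inhibitor library and 20 to 31 in each DMSO library. NFE2L2, the NRF2 gene, did not pass at -0.34 (SE 0.181, edgeR adjusted p = 0.322), and ATF5, an ATF4-related factor, was higher without passing, at 0.55 (SE 0.152, edgeR adjusted p = 0.061). ATF5 passed as higher in some alternatives, among them DESeq2 (adjusted p = 0.0312) and edgeR without DMSO 3 (adjusted p = 0.0125). It did not pass in others, among them limma-voom (adjusted p = 0.0572) and each fit that left out an inhibitor library. In the main fit 6 of 8 listed regulators were lower, where 1.92% of all tested genes were lower. The list was chosen with earlier results of these data known.

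The genes with the nearest profiles over the 6 libraries were found by the root mean square distance between log2 CPM values centred on each gene's mean. For MTHFD2 these were PLK3 (distance 0.0664), PCK2 (0.0773) and SLC7A1 (0.0777), against a median distance of 0.481 over all other tested genes. PCK2, the mitochondrial phosphoenolpyruvate carboxykinase, was at 20.9, 23.2 and 23.3 CPM with the inhibitor and 44.7, 39.7 and 36.2 CPM with DMSO. Like MTHFD2, each of PLK3, PCK2 and SLC7A1 was lowest among the DMSO libraries in DMSO 3, as the choice by profile favours. For ASNS the nearest were REPS2, CREB3L4 and SETDB2 (0.0468 to 0.0553), all high in DMSO 3 and none past the threshold. For PHGDH they were NR2C2AP, ZGPAT and CORO1B (0.0203 to 0.0393), again with none past the threshold. With 6 libraries and 11216 genes, near profiles are a description and were not tested.

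Some counts may hold reads of more than 1 gene. GENCODE release 29 names 18 pseudogenes after members, 7 of them after MTHFD2, 4 each after ASNS and PSAT1 and 1 each after PSPH, SHMT1 and MTHFD1, and none of these has a row of its own in the files. Exons of AC079781.5 on the same strand overlap those of ASNS, and MIR6778 on the same strand overlaps SHMT1, so strand could not part these. Exons on the opposite strand overlap those of SHMT1, MTHFD1, SHMT2, MTHFD2 and ALDH1L2, and the sources used here do not say whether counting used strand. How far the panel's products part these sequences was not tested.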

How the data were processed

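RNA of 6 libraries was measured, 3 with inhibitor and 3 with DMSO, grouped by their titles. The authors deposited raw counts per gene symbol, made from an amplicon panel with no molecular identifiers named, per the labels' protocols, so intervals and errors may treat copies of a molecule as independent. HTSeq, DESeq2 1.20.0 and the hg19 build stand in the submitters' processing notes, with no role stated; no aligner is named in the sources used here.

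Counts were tested with edgeR 4.0.16 in R 4.3.3: filterByExpr (minimum count 10, minimum total 15), TMM scaling, the quasi-likelihood test on the group and Benjamini-Hochberg adjustment over 11216 genes at 0.05. The SE is the absolute log2 fold change divided by the square root of F. Log2 CPM used a prior count of 2. Isoenzyme ratios added 2 to each count and were compared by the exact permutation test. Alternatives used DESeq2 1.42.0, limma-voom 3.58.1 (also with library quality weights), other scaling and filters, a replicate block, removal of each library's GC trend (loess, span 0.5, GC content from GENCODE 29 transcripts for 98.9% of tested genes) and each library left out. In simulated counts of the inhibitor against DMSO comparison, on 11136 genes, the share of altered genes that edgeR found was 44.8% at 1.5-fold, 83.3% at 2-fold and 98.5% at 4-fold. False calls made up 5.66% of its calls and 9.7% of those by DESeq2. The simulated libraries were drawn independently, with no GC trend and no library that stood apart. How far these shares hold for the measured counts was not tested.

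The members, gene lists, named-gene rule and motifs were chosen with earlier results of these data known. The rule named all members and regulators, fixed neighbours (TYMS, MTHFD2L, ALDH1L1, GLDC, CBS, CTH and 1 that is not reported here), up to 3 changed genes of each neighbouring list and the 3 nearest profiles of ASNS, PHGDH and MTHFD2. The series calls the replicates biological without describing separate cultures, so p-values measure only the spread between these libraries, which may be technical.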

Additional observations from a re-analysis of the deposited data

How the results depend on the processing

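MTHFD2 passed in all 16 alternatives. ALDH1L1, CTH, DDIT3, GLDC, MTHFD2L and REPS2 have no value with a minimum mean count of 50, which leaves them out. The number of members called lower was 4 with no filter on low counts, 2 with DESeq2, 5 with limma-voom and library quality weights, 4 with the GC trend removed and 4 with the replicate block and the GC trend removed, and 1 to 5 with 1 library left out. Over all genes, 434 changed in the main comparison, 831 with no filter, 2606 with quality weights, 686 after removal of the GC trend, 756 with the block added to that, and 99 to 2496 with 1 library left out; library totals gave 336 higher and 163 lower, in place of 219 and 215. Neighbouring genes called lower numbered 11 and those called higher 8 with quality weights, and 1 to 12 and 1 to 5 with 1 library left out. With 1 library left out the log2 fold changes ranged from -0.139 to 0.0542 for PSPH, -0.0187 to 0.195 for MTHFD1, -0.19 to 0.13 for MTHFD2L and -0.10 to 0.38 for GLDC. PSPH was at 0.0206 and MTHFD2L at 0.0369 with library totals, and MTHFD2L at 0.0197 with quality weights; none of these passed. The difference of the isoenzyme log2 ratio ranged from -0.71 to -0.39 for SHMT2/SHMT1, -1.02 to -0.86 for MTHFD2/MTHFD1, -0.71 to -0.17 for MTHFD1L/MTHFD1, -0.41 to 0.0404 for ALDH1L2/ALDH1L1, -0.93 to -0.58 for ALDH1L2/MTHFD1 and -1.02 to -0.59 for MTHFD2/MTHFD2L. The cause of these differences between settings was not tested. Same-numbered libraries did not deviate together (correlations -0.0787, -0.0448 and -0.119). These correlations also carry each library's GC trend, so they cannot decide whether the numbers pair the samples. With the replicate block 327 genes changed, 1 member and 5 neighbours were lower and 1 neighbour was higher. The paired ratio differences of SHMT2/SHMT1 and MTHFD2/MTHFD1 had an exact p = 0.25, the smallest that 3 pairs allow. A member that did not pass is not shown to be equal between groups.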

Other observations

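The genes in this paragraph other than ATF4 and ATF5 were named after their values were seen. Genes with few or no counts limit what can be said of nearby steps. GLUD1, the glutamate dehydrogenase gene, was listed at 0 in all 6 libraries, and GCSH, the carrier protein gene of the glycine cleavage system, had at most 1 count in any library. SDS, TDH, BHMT and BHMT2 also had no count. ATF5, which did not pass in the main comparison, was higher in all 3 inhibitor libraries, at 51.9, 63.3 and 61.9 CPM against 47.9, 40 and 32.8 CPM, while ATF4 was lower in all 3.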
